A study of Mus musculus with 12 samples.

Results

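The retinal expression of 36 genes of ciliary transport was compared between SHAM, MOG, GB20 and GV16 mice. The genes were a given set of intraflagellar transport, BBSome, transition zone and lipidated cargo genes, and each was found by its mouse symbol as 1 of the 54532 gene identifiers in the tables. All 36 passed the filter on low counts, among 18299 genes tested.

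A primary cilium is built and maintained by intraflagellar transport (IFT), in which the IFT-B and IFT-A complexes are carried outward by kinesin-2 and back by dynein-2. The BBSome links membrane proteins to these trains, and the transition zone at the base of the cilium acts as a gate. Proteins that carry a lipid enter by another route, in which UNC119 binds myristoylated and PDE6D binds prenylated cargo and ARL3 releases it. The outer segment of a rod or cone is a modified cilium joined to the cell body by a connecting cilium, and inherited defects of many of these genes cause retinal degeneration.

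The 12 libraries came from retinas of wild type C57BL/6 mice aged 13 weeks, female per the study's methods, with 3 libraries in each group. SHAM was the sham control, whose content is not stated in the sources used here, and MOG mice were immunized with the MOG35-55 peptide, a model of optic neuritis. The immunization also included complete Freund's adjuvant with mycobacterium, and pertussis toxin. With the content of SHAM not stated, the peptide cannot be told apart from the adjuvant and the toxin. GB20 and GV16 mice received the same immunization and then needling at the acupoint GB20 or at the control acupoint GV16 under xylazine and ketamine. Anesthesia is not mentioned for SHAM and MOG, so needling and anesthesia cannot be told apart. Per the study's methods each group held a few mice, the experiment was repeated and biological replicates were sequenced. Whether a library pools the mice of a repeat, and whether equal replicate numbers mark the same repeat, is not stated, and p-values measure the spread between these libraries.

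Cys1 stood apart from the other 35 genes. Its expression in MOG retinas was 0.618 times that in SHAM, and it was 1.85-fold higher in GB20 and 1.70-fold higher in GV16 than in MOG. It was the only member past an adjusted p-value of 0.05 in these 3 comparisons, all of which share the MOG libraries. None of the IFT-B, IFT-A, motor, BBSome or transition zone members passed in any of the 6 comparisons between groups by edgeR on all 12 libraries with the filter on low counts. Without that filter Cep290 of the transition zone passed in GV16 vs. SHAM. The call of Cys1 rested in part on single libraries, as given below for each comparison.

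The lipid signals of this route can be read at the ends of the coding sequences, which are shown because they set Cys1 beside its fellow cargo proteins. The lines below are 30 bases each from GENCODE vM21 on GRCm38, written 5′ to 3′ on the coding strand, Cys1 from chr12:24680879-24680908 (minus strand), Rp2 from chrX:20364736-20364765 (plus strand) and Inpp5e from chr2:26397839-26397868 (minus strand). Capitals in Cys1 and Rp2 mark the start codon and the glycine codon after it, where myristate is attached. Capitals in Inpp5e mark the last 4 codons before the stop, the CaaX box that is farnesylated.
Cys1 start: ATGGGCagcggcagcagccggagcggccgg
Rp2 start: ATGGGCtgctgcttcactaagaggaggaag
Inpp5e end: agctccagtgcagttTGCACCGTGTCCtga

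Promoters of the members shared letters that the choice of genes did not use. RFX factors, which drive ciliary genes, bind a motif containing GTTGCC. Among RefSeq promoters on GRCm38.p6, taken from 250 bases before to 50 bases after a start site and searched on both strands, this motif was present in 17 of the 33 members with an entry (51.5%) and in 14.1% of 27025 genes. The longer form GTTGCCNNGG, every match of which contains the shorter one, was present in 7 of 33 members (21.2%) and in 2.59% of all genes. The photoreceptor motif TAATCC of CRX was present in 3 of 33 members (9.09%) and in 8.14% of all genes. The E-box CACGTG was present in 2 of 33 members, Arl3 and Bbs7 (6.06%), and in 8.09% of all genes. The matches are descriptions of the letters and not of binding. Ift80, Ift81 and Ift122 had no entry.

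The windows of 24 bases below show the longer RFX motif in members of 3 machineries and the CRX motif in the most and the third most expressed members by FPKM. They run 5′ to 3′ on the strand of the gene with the motif in capitals. They lie at chr11:87853184-87853207 for Mks1 (plus strand), chr16:49699200-49699223 for Ift57 (plus strand), chr3:36613494-36613517 for Bbs7 (minus strand), chr11:78345457-78345480 for Unc119 (plus strand) and chr14:52110866-52110889 for Rpgrip1 (plus strand). The CRX motif of Unc119 and Rpgrip1 is on the opposite strand and therefore reads GGATTA. Bbs1 was the only other member with this motif, and Arl3, the second most expressed member, had none. As given above, the share of members with the CRX motif was near that of all genes. A relation of the motif to expression was not tested.
Mks1, RFX: cgtctccGTTGCCAGGGgaacgag
Ift57, RFX: gggtctgGTTGCCGTGGtgaccgg
Bbs7, RFX: cgccccgGTTGCCTTGGaaaccgg
Unc119, CRX: gctgtttctGGATTAccaggcctt
Rpgrip1, CRX: aaaaggcctGGATTAgtgtctcct

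The promoter window of Cys1 held none of these 4 motifs. The 120 bases before its RefSeq start, at chr12:24681796-24681915 on the minus strand, are printed because Cys1 carried the differences between groups, and 65.8% of them are G or C.
Cys1 promoter: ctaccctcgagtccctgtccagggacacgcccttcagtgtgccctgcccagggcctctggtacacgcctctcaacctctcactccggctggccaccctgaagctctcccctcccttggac

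The markers of the labelled tissue were present in all libraries. The 16 rod markers summed to between 66089 and 74075 CPM, counts scaled to library size by TMM, in the 12 libraries, and none of the markers tested was at 0. The libraries held between 15860278 and 19194280 counts. The 12 retinal ganglion cell markers were all lower in MOG than in SHAM by the edgeR test at an adjusted p-value of 0.05, with a median log2 fold change of -0.90. In SHAM libraries they summed to 907 to 1031 CPM, compared with 514 to 621 CPM for MOG, 620 to 635 CPM for GB20 and 485 to 697 CPM for GV16. In bulk tissue, fewer cells of a type and less RNA per cell cannot be told apart.

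Levels of different members were compared by FPKM, which is scaled to gene length. Unc119 was the highest member in SHAM, at 703 ± 83.8 FPKM (SD, n = 3), and ranked 19th of all genes tested. Arl3 followed at 264 ± 30.6 and ranked 68th, although its deposited length of 822 bases is shorter than the 2490 exon bases of GENCODE vM21, which raises its FPKM. Rpgrip1, which anchors RPGR in the connecting cilium, was at 102 ± 15.3 FPKM and ranked 244th. The median member stood at 10.4 FPKM in SHAM against 4.43 for all genes tested, and 33 of 36 members lay above the latter.

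Within the cargo route the levels spanned the widest range. Pde6d was at 52.7 ± 7.32 FPKM in SHAM, Arl13b, the small GTPase that activates ARL3, at 16.9 ± 1.35, and the phosphatase Inpp5e at 9.98 ± 0.522. Cys1 encodes cystin-1, a myristoylated ciliary membrane protein whose loss causes polycystic kidneys in the cpk mouse. It ranked 32nd of the members at 5.24 ± 0.823 FPKM, and Rp2, which turns off ARL3, was at 3.83 ± 0.339.

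The BBSome subunits lay close together, from 45.6 ± 3.28 FPKM for Bbs2 to 19.7 ± 0.518 for Bbs9 in SHAM. The deposited length of Bbs1, 5581 bases, is also below its 7674 exon bases. IFT-B members ran from Ift20 at 37.8 ± 5.67 to Ift46 at 5.80 ± 0.260 FPKM. Ift52, Ift81, Ift172 and Ift74 lay between 14.0 and 10.8 FPKM, and Ift57, Ift27, Ift88 and Ift80 between 8.44 and 6.37. By comparison the IFT-A members Ift122 and Ift140 were at 7.22 ± 0.130 and 6.75 ± 0.489. In the transition zone Cep290 was at 15.4 ± 2.53 FPKM, Mks1, Rpgr, Nphp4, Tctn1 and Tctn2 lay between 8.55 and 4.88, and the lowest member was Rpgrip1l at 1.81 ± 0.0664 FPKM. The dynein-2 heavy chain Dync2h1 was at 5.62 ± 1.03, and the kinesin-2 motor Kif17 was the lowest member at 1.36 ± 0.0980 FPKM. Lca5, whose product lebercilin binds IFT proteins, was at 15.6 ± 0.509. Of the 35 pairs of neighbours in the order of FPKM, 13 had SHAM libraries that did not overlap. The others, including Cys1 with Dync2h1 above and Tctn2 below it, had SHAM libraries that overlapped. Differences in level between members were not tested.

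**Figure D1:**
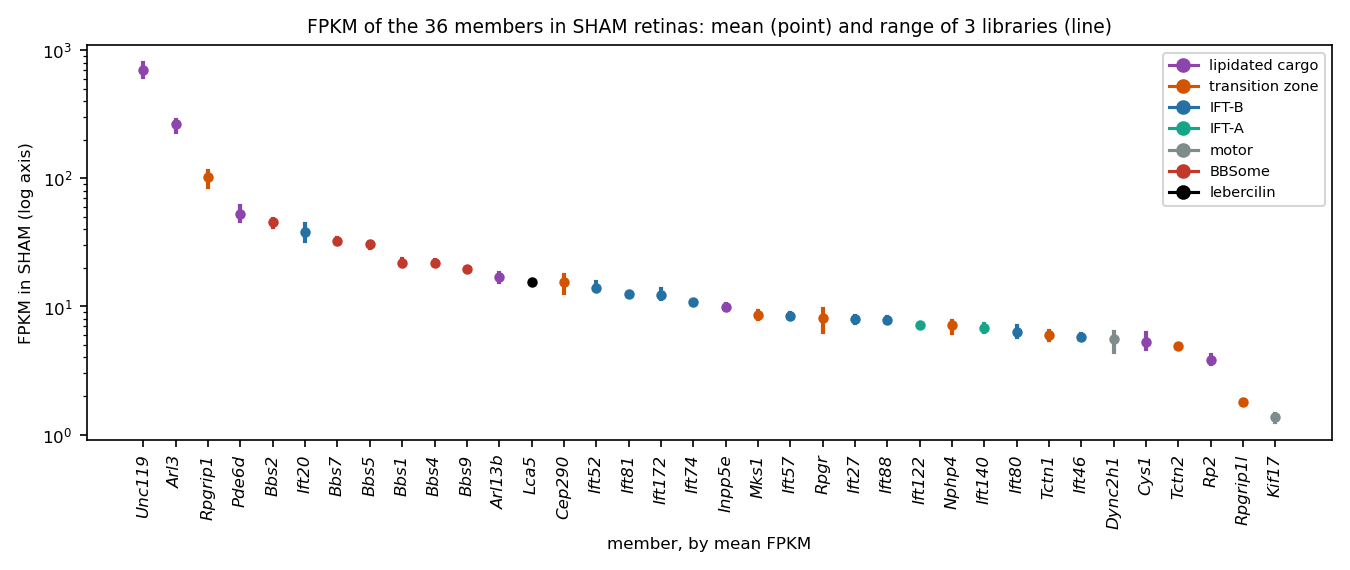
FPKM of the 36 members in SHAM on a log axis, ordered by mean, with a point for the mean and a line for the range of 3 libraries, coloured by role. Unc119, Arl3 and Rpgrip1 stand above the rest, and Cys1 is the 32nd of 36.

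Together the members took between 0.534% and 0.596% of the counts of a library, and Unc119 and Rpgrip1 held between 52.8% and 55.7% of the members' counts. The members varied little between libraries. Over all 12 libraries, 31 of 36 had a highest CPM less than 1.5 times their lowest, and the ratio was smallest for Ift81, at 1.11. The ratio was 2.31 for Cys1 and between 1.52 and 1.62 for Pde6d, Kif17, Cep290 and Rpgr. The median within-group SD of log2 CPM was 0.0978 for the members and 0.155 for all genes tested, and that of Cys1 was 0.198. These medians were not matched for expression level, and most members lay above the median FPKM of all genes tested.

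Exons of 9 members overlap those of another gene, and the strand setting of the counting is not given, so their counts are uncertain. The overlap took 25.5% of the exon length of Tctn1, 20.3% of Inpp5e, which overlaps Pmpca, 8.70% of Rpgrip1, 7.86% of Ift57, 7.58% of Cep290, and less of Bbs4, Rpgr, Kif17 and Ift88. Cys1, Unc119, Arl3 and Pde6d had no overlap.

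The comparison of MOG with SHAM asks what the immunization changed. Cys1 (ENSMUSG00000062563, protein-coding, chr12:24665833-24681813, minus strand) had 13.9, 18.4 and 14.5 CPM in the SHAM libraries and 11.2, 8.54 and 9.07 CPM in the MOG libraries. All MOG libraries were below all SHAM libraries. The means were 15.6 ± 2.44 and 9.62 ± 1.44 CPM (SD, n = 3), and the libraries held between 139 and 313 counts of the gene. Cys1 fell by 0.69 on the log2 scale (SE 0.141, 95% interval -0.99 to -0.40, adjusted p = 0.0096, edgeR quasi-likelihood test). Without MOG replicate 2 the adjusted p-value was 0.107 at a log2 fold change of -0.61, and without MOG replicate 3 it was 0.0946 at -0.65. Without SHAM replicate 2 the call of Cys1 was kept at the smallest change of these fits, -0.55 (edgeR adjusted p = 0.0455). In limma fits of the deposited FPKM values the adjusted p-value was between 0.0569 and 0.192.

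Of the 36 members, 1 was called in this comparison, where 1.34% of all genes tested were called. Unadjusted p-values under 0.05 were found for 5 members, Cys1, Cep290, Pde6d, Arl3 and Rpgrip1, against 13.0% of all genes. For 6 members the groups did not overlap, against 16.2% of all genes, with Cys1, Tctn2, Ift27, Ift46 and Ift52 lower in MOG and Lca5 higher. These shares of the members, 13.9% and 16.7%, were near those of all genes. The median log2 fold change was 0.014 for the members and -0.002 for all genes.

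Its carrier Unc119 showed a smaller difference. Unc119 had 1730, 1947 and 1535 CPM in SHAM and 1589, 1518 and 1505 CPM in MOG. The third SHAM library lay among the MOG libraries, so the groups overlapped. The log2 fold change was -0.18 (SE 0.0881, 95% interval -0.36 to 0.0058) with an edgeR adjusted p-value of 0.399.

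The other 2 members of the cargo route among the smallest p-values were also lower in the mean. Pde6d had 113, 133 and 102 CPM in SHAM and 113, 87.5 and 94.6 CPM in MOG, and Arl3 had 233, 235 and 190 CPM in SHAM and 205, 186 and 193 CPM in MOG. In both genes the groups overlapped. The log2 fold changes were -0.24 for Pde6d (SE 0.102, edgeR adjusted p = 0.323) and -0.17 for Arl3 (SE 0.0777, edgeR adjusted p = 0.338).

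Cep290, a transition zone protein mutated in Leber congenital amaurosis, had 185, 149 and 208 CPM in SHAM and 205, 217 and 216 CPM in MOG. The second SHAM library was the lowest, and the third SHAM library lay above the lowest MOG library. The log2 fold change was 0.23 (SE 0.0955, edgeR adjusted p = 0.291). Without SHAM replicate 2 the log2 fold changes in this comparison shrank to 0.12 for Cep290, -0.08 for Unc119 and -0.12 for Pde6d, and leaving out another library took them as far as 0.34, -0.26 and -0.35. None of the 3 was called in any of these fits. The other transition zone members lay between -0.12 for Tctn2 and 0.24 for Rpgr.

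The remaining machinery differed little. The 10 IFT-B members lay between -0.19 and 0.09 on the log2 scale, the 2 IFT-A members at 0.03 and 0.03, and the 6 BBSome members between -0.06 and 0.15. None of these passed the test. For the 35 members other than Cys1, the 95% intervals ran from -0.45 for Pde6d to 0.53 for Rpgr, and 34 of them lay within 0.5 of 0 on the log2 scale.

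**Figure D2:**
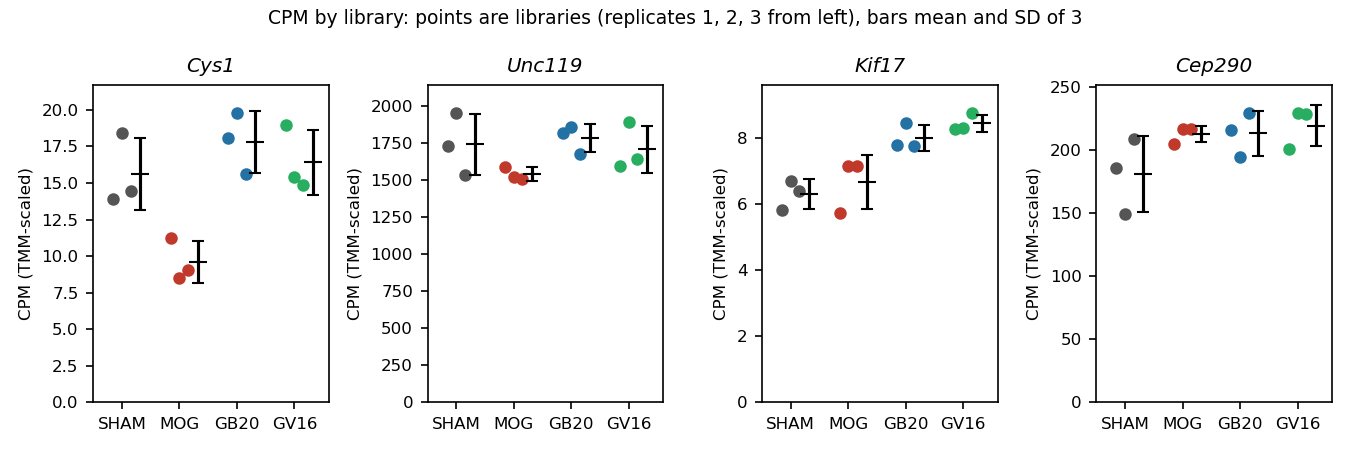
CPM of Cys1, Unc119, Kif17 and Cep290 in the 12 libraries, with points for libraries (replicates 1, 2 and 3 from left) and bars for the mean and SD of 3. The 3 MOG libraries of Cys1 lie between 8.54 and 11.2 CPM, below the other 9, while the groups of Unc119 and Cep290 differ by much less.

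The comparison of GB20 with MOG asks what needling at that site changed in immunized mice. Cys1 had 18.1, 19.8 and 15.6 CPM in GB20, all above the 3 MOG libraries. The mean was 17.8 ± 2.10 CPM (SD, n = 3) and the log2 fold change 0.89 (SE 0.139, 95% interval 0.60 to 1.17, adjusted p = 0.00343, edgeR quasi-likelihood test). Without MOG replicate 2 the log2 fold change was 0.81 with an adjusted p-value of 0.058. The call was also lost in limma on log2(FPKM + 1), at 0.72, with an adjusted p-value of 0.0523 with the filter and 0.13 without it.

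Cys1 was the 1 of 36 members called, where 0.24% of all genes were called. Unadjusted p-values under 0.05 were found for 3 members, against 8.0% of all genes. The groups did not overlap for 11 members, against 15.7% of all genes, and all 11 were higher in GB20. The 11 were Cys1, Unc119 and Arl3 of the cargo route, Rpgrip1l, Kif17, Bbs2 and 5 IFT-B members. Of these, Ift20, Ift52 and Ift57 had log2 fold changes between 0.12 and 0.14, Ift46 was at 0.09 and Ift81 at 0.06. Over all members 23 were higher and 13 lower in the mean, with a median log2 fold change of 0.036 against 0.001 for all genes.

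Unc119 had 1815, 1853 and 1675 CPM in GB20, all above the highest MOG library at 1589 CPM. The log2 fold change was 0.21 (SE 0.0881, edgeR adjusted p = 0.537, unadjusted p = 0.0245). In a DESeq2 fit of these 6 libraries the value was 0.21 with an adjusted p-value of 0.0329, and no other fit called the gene.

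Rpgrip1l, a transition zone scaffold, had 27.3, 23.5 and 27.8 CPM in MOG and 32.3, 28.8 and 31.6 CPM in GB20. The GB20 libraries were all higher, and the log2 fold change was 0.24 (SE 0.0916, edgeR adjusted p = 0.494). Kif17, which moves along the outer cilium, had 5.71, 7.13 and 7.15 CPM in MOG and 7.78, 8.45 and 7.73 CPM in GB20. Here too the GB20 libraries were all higher, with a log2 fold change of 0.26 (SE 0.136, edgeR adjusted p = 0.638). Arl3 had 214, 210 and 211 CPM in GB20, all above MOG, with a log2 fold change of 0.12 (SE 0.0777, edgeR adjusted p = 0.713).

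Among the members other than Cys1, the lowest log2 fold change was -0.13 for Dync2h1, and the 95% intervals of the 35 ran from -0.39 for Dync2h1 to 0.55 for Kif17. The 6 BBSome members lay between -0.04 and 0.10 and the 2 IFT-A members at 0.02 and 0.05.

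The comparison of GV16 with MOG repeats the question for the control acupoint. Cys1 had 18.9, 15.4 and 14.9 CPM in GV16, all above the MOG libraries, with a mean of 16.4 ± 2.21 CPM (SD, n = 3). The log2 fold change was 0.77 (SE 0.141, 95% interval 0.48 to 1.06, adjusted p = 0.0199, edgeR quasi-likelihood test). The call was lost without MOG replicate 2 (adjusted p = 0.18, edgeR), MOG replicate 3 (adjusted p = 0.2, edgeR), GV16 replicate 1 (adjusted p = 0.166, edgeR) or GV16 replicate 2 (adjusted p = 0.0702, edgeR), with log2 fold changes between 0.65 and 0.81. It was also lost in the limma-voom fit at an adjusted p-value of 0.0592.

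Again 1 of 36 members was called, where 0.164% of all genes were called. Unadjusted p-values under 0.05 were found for 3 members, against 5.3% of all genes. The groups did not overlap for 5 members, all higher in GV16, against 12.6% of all genes, and the 5 were Cys1, Unc119, Arl3, Kif17 and Ift52. The median log2 fold change was 0.019 for the members and 0.002 for all genes.

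Kif17 had 8.26, 8.29 and 8.73 CPM in GV16, above every MOG library, with a log2 fold change of 0.34 (SE 0.137, 95% interval 0.058 to 0.62, edgeR adjusted p = 0.83). It is among the members with the fewest counts, between 96 and 151 in a library. Arl3 had 218, 229 and 214 CPM in GV16, a log2 fold change of 0.18 (SE 0.0777, edgeR adjusted p = 0.905), again with all GV16 libraries higher.

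Ift52, an IFT-B core subunit, had 36.9, 36.3 and 34.3 CPM in MOG and 40.05, 41.6 and 37.2 CPM in GV16. The groups lay apart by a small gap, at a log2 fold change of 0.14 (SE 0.0833, edgeR adjusted p = 0.992). Unc119 had 1589, 1886 and 1641 CPM in GV16 and a log2 fold change of 0.15 (SE 0.0881, edgeR adjusted p = 0.992). Its lowest GV16 library was at the level of the highest MOG library.

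**Figure D3:**
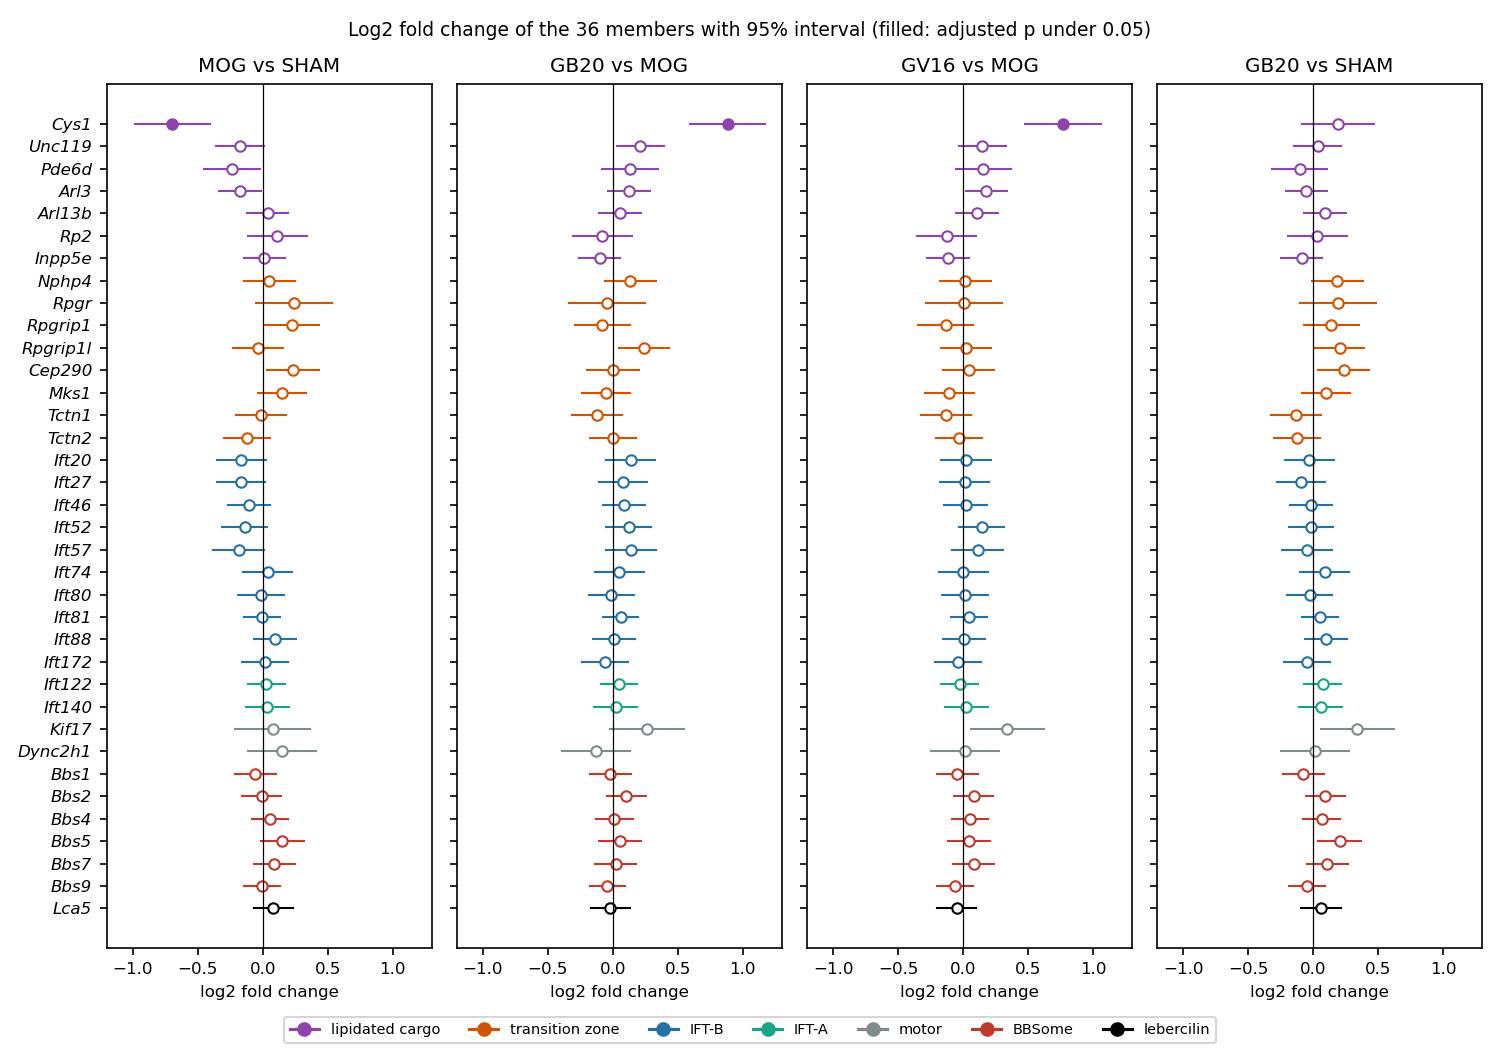
Log2 fold change of each of the 36 members with its 95% interval in 4 comparisons, coloured by role and filled where the adjusted p-value was under 0.05. Cys1 is the only filled point, at -0.69, 0.89 and 0.77, and the point of every other member lies between -0.24 and 0.34.

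The direct comparison of the acupoints used no MOG library. Cys1 differed by 0.12 on the log2 scale between GB20 and GV16, with a 95% interval from -0.16 to 0.40 and overlapping libraries. Leaving out 1 library moved the value to between 0.04 (without GB20 replicate 2) and 0.24 (without GV16 replicate 1). No member was called by edgeR, where 0.00546% of all genes were called, and none was called by DESeq2, limma-voom or limma on FPKM. Rpgrip1l was the 1 member with an unadjusted p-value under 0.05, against 2.93% of all genes. The groups did not overlap for 2 members, Arl3 and Ift27, against 8.34% of all genes. The median log2 fold change was 0.017 for the members and 0.001 for all genes.

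Rpgrip1l had 26.3, 28.9 and 24.6 CPM in GV16 against the GB20 values above, and its highest GV16 library lay just over the lowest GB20 library. The log2 fold change was 0.22 (SE 0.0918, 95% interval 0.027 to 0.41, unadjusted p = 0.0271 in edgeR). Ift20, which also works at the Golgi, had 58.1, 60.4 and 52.6 CPM in GB20 and 49.3, 56.9 and 51.8 CPM in GV16, a log2 fold change of 0.12 (SE 0.0916). Nphp4 had 45.7, 53.3 and 51.0 CPM in GB20 and 42.7, 46.5 and 49.1 CPM in GV16, a log2 fold change of 0.12 (SE 0.0947). Both overlapped between the groups.

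Comparisons of the needled groups with SHAM share the SHAM libraries with MOG vs. SHAM. Cys1 did not differ detectably from SHAM in either. Its log2 fold change was 0.19 in GB20 (SE 0.133, 95% interval -0.085 to 0.47, edgeR adjusted p = 0.753) and 0.07 in GV16 (95% interval -0.21 to 0.35, edgeR adjusted p = 0.895). The libraries of both needled groups overlapped those of SHAM. For Unc119 the values were 0.04 in GB20 and -0.03 in GV16.

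In GB20 vs. SHAM no member was called by edgeR, DESeq2 or limma, where edgeR called 0.344% of all genes. Unadjusted p-values under 0.05 were found for 4 members against 9.06% of all genes, and 3 members had groups apart, Bbs5, Kif17 and Rpgrip1l, against 12.7% of all genes. With a replicate block, edgeR called 182 genes in place of 63, and no member. In GV16 vs. SHAM no member was called by edgeR with the filter on low counts, by DESeq2 or by limma, where edgeR called 0.656% of all genes. Without the filter edgeR called Cep290. There 4 members, Kif17, Cep290, Bbs5 and Bbs7, had an unadjusted p-value under 0.05 against 10.9% of all genes. The groups lay apart for 5 members against 14.5% of all genes, with Kif17 and Bbs5 higher and Inpp5e, Tctn2 and Ift27 lower in GV16. With the block 236 genes in place of 120 were called, and no member. The median log2 fold change was 0.055 for the members in GB20 vs. SHAM and 0.020 in GV16 vs. SHAM, against 0.001 and -0.004 for all genes.

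Bbs5, Kif17 and Cep290 had the smallest p-values of the members in either comparison. Bbs5, a BBSome subunit that binds phosphoinositides, had 71.2, 78.9 and 77.7 CPM in SHAM, 87.7, 92.7 and 81.9 CPM in GB20, and 84.2, 88.9 and 87.8 CPM in GV16. Both needled groups were above SHAM in every library, by 0.20 on the log2 scale in each case (edgeR adjusted p = 0.396 and 0.34).

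Kif17 had 5.81, 6.70 and 6.38 CPM in SHAM, below all 6 needled libraries. The log2 fold changes were 0.34 in GB20 (SE 0.137, edgeR adjusted p = 0.429) and 0.42 in GV16 (SE 0.137, 95% interval 0.14 to 0.70, edgeR adjusted p = 0.208).

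Cep290 had 216, 194 and 229 CPM in GB20 and 201, 229 and 228 CPM in GV16, overlapping SHAM in both. Its log2 fold changes were 0.24 (SE 0.0955, edgeR adjusted p = 0.442) and 0.28 (SE 0.0956, edgeR adjusted p = 0.246). In GV16 vs. SHAM it was called without the filter on low counts at 0.28 (edgeR adjusted p = 0.0312) and without SHAM replicate 3 at 0.39 (edgeR adjusted p = 0.0385).

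Set against the other members, Cys1 was low in MOG. This restates its CPM values, since the mean of the other members varied little between groups. The geometric mean CPM of the other 35 members was 71.7 in SHAM, 72.1 in MOG, 74.1 in GB20 and 73.4 in GV16. The log2 ratio of Cys1 to this mean was -2.21 ± 0.224 in SHAM, -2.92 ± 0.230 in MOG, -2.06 ± 0.203 in GB20 and -2.17 ± 0.228 in GV16 (SD, n = 3). The MOG libraries lay between -3.08 and -2.65 and all 9 others above them, between -2.35 and -1.87.

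Markers of other cells were read beside Cys1. The ganglion cell markers stayed lower than SHAM in the needled groups, with 4 of 12 called lower in GB20 and 11 of 12 in GV16. All 12 had an unadjusted p-value under 0.05 in edgeR in both of these comparisons. In GB20 vs. GV16 edgeR called 0 of the 12, with 1 at an unadjusted p-value under 0.05. EdgeR also called 0 in either needled group against MOG (4 in GB20 and 0 in GV16 at an unadjusted p-value under 0.05). Markers of the pigment epithelium and choroid summed to 24.5 to 32.8 CPM in SHAM libraries, compared with 42.5 to 56.5 CPM for MOG, 44.2 to 53.0 CPM for GB20 and 26.9 to 67.6 CPM for GV16. Microglial markers summed to 41.9 to 49.5 CPM in SHAM libraries and to 55.0 to 69.1 CPM over the other 9. The 8 oligodendrocyte markers, 4 of them tested, summed to 70.6 to 101 CPM in MOG libraries. Over the other 9 libraries they summed to 56.6 to 66.7 CPM. The highest sum was in MOG replicate 2, beside 71.8 and 70.6 CPM in MOG replicates 1 and 3. Of the 4 tested, Cnp was called higher in MOG than in SHAM, GB20 and GV16. Of the 13 motile cilium markers, 10 were tested. The axonemal dynein Dnah9 was called higher in MOG than in SHAM, at a mean of 36.8 against 25.4 CPM. The median log2 fold change of the 10 was -0.04 in that comparison, and Foxj1 was called lower in GV16 than in SHAM. Of the 10 Müller cell markers, Aqp4 was called higher in MOG than in SHAM, GB20 and GV16. Its mean was 145 CPM in MOG against 105 in SHAM, 113 in GB20 and 114 in GV16. Car14 was called higher in GB20 and GV16 than in MOG, at 64.7 and 64.9 against 45.9 CPM. Rlbp1 was called lower in GV16 than in SHAM, and the median log2 fold change of the 10 in MOG vs. SHAM was -0.04. EdgeR called 0 of the 16 rod markers in each comparison, with 0 to 3 at an unadjusted p-value under 0.05. Of the 11 cone markers, 4 had an unadjusted p-value under 0.05 in MOG against SHAM, and 4 in each needled group against MOG. EdgeR called 0 of the 11 there, and it called Opn1mw higher in GV16 than in SHAM. The mean of Arr3 was 268 CPM in MOG against 381 in SHAM, 414 in GB20 and 376 in GV16. Gnb3 was highest in MOG, at 482 CPM against 412 in SHAM, 432 in GB20 and 405 in GV16. Rod and cone sums overlapped between all groups. The part of these markers in the result for Cys1 was not tested.

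Part of the spread among the members followed gene length. Ordered by length, the deviation of a library from its group mean had a Spearman correlation with length across the 36 members of -0.67 in SHAM replicate 2, 0.69 in SHAM replicate 3, -0.60 in GB20 replicate 2 and 0.77 in GB20 replicate 3. Genes are not independent replicates, all members of a library share its RNA, and the values over 11139 genes were -0.58, 0.57, -0.28 and 0.46. The long gene Dync2h1 thus had 102, 73.1 and 104 CPM in SHAM and 96.6, 77.3 and 108 CPM in GB20, with the second replicate lowest in both. Rpgrip1 had 1324, 1042 and 1401 CPM in SHAM and 1466, 1208 and 1480 CPM in GB20, in the same order. The short genes Unc119 and Pde6d were highest in SHAM replicate 2. Cys1, of 2952 bases, was highest of its group in SHAM replicate 2 (18.4 CPM) and in GB20 replicate 2 (19.8 CPM).

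**Figure D4:**
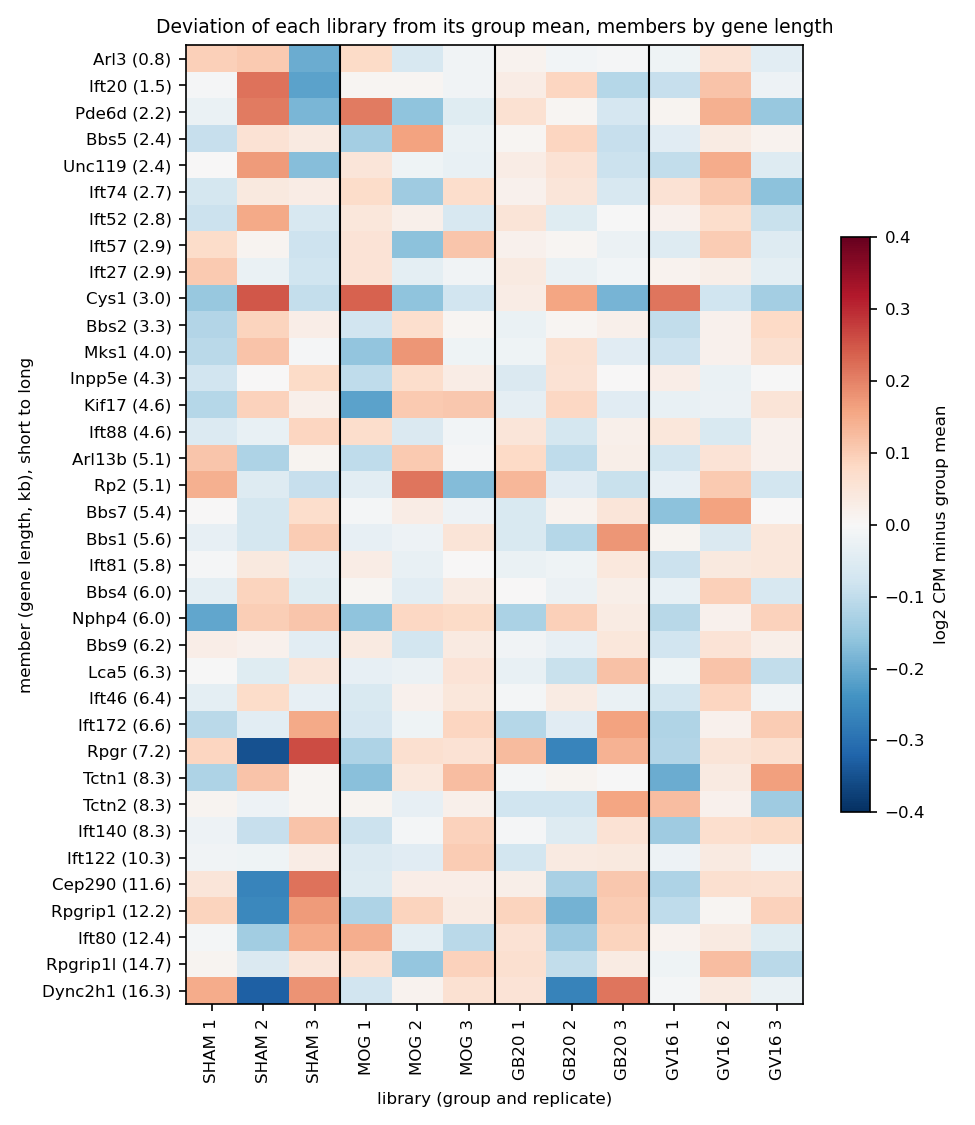
Log2 CPM of each library minus the mean of its group for the 36 members, ordered from the shortest to the longest gene, with 3 libraries per group. SHAM replicate 2 and GB20 replicate 2 are low in the long genes at the bottom, and SHAM replicate 3 and GB20 replicate 3 are high there.

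The fold changes followed length as well, with Spearman correlations across the members of 0.40 in MOG vs. SHAM, -0.52 in GB20 vs. MOG and -0.46 in GV16 vs. MOG, beside 0.39, -0.41 and -0.18 over 11139 genes. After a length trend was removed in each library, they were 0.12, -0.15 and -0.34. Cys1 kept its calls under this correction, at -0.64, 0.85 and 0.76 (edgeR adjusted p = 0.00654, 0.000823 and 0.00418). The difference of Unc119 between MOG and SHAM became -0.11 and that of Arl3 -0.09, both of them smaller by over 1.5 times, and Pde6d was at -0.16. In GB20 vs. MOG, Arl3 moved from 0.12 to 0.03. The correction used deposited lengths, for Arl3 822 bases against 2490 exon bases in GENCODE vM21, so its corrected values are uncertain.

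A wider ciliary set was read in the same way. Of 61 further ciliary genes, chosen with earlier results of these data known, all 61 were tested and edgeR called 0 in each comparison. Unadjusted p-values under 0.05 were found for 7 of them in MOG vs. SHAM (13.0% of all genes), 2 in GB20 vs. MOG (8.0%), 2 in GV16 vs. MOG (5.3%), 0 in GB20 vs. GV16 (2.93%), 4 in GB20 vs. SHAM (9.06%) and 5 in GV16 vs. SHAM (10.9%). The smallest p-value belonged to Bbs12, a chaperonin-like protein of BBSome assembly. Its mean was 42.2 ± 3.00 CPM for SHAM against 53.0 ± 1.90 CPM for MOG (SD, n = 3), and the log2 fold change was 0.33 (SE 0.0854, edgeR adjusted p = 0.0572), with all MOG libraries higher. Mak, a kinase of the photoreceptor axoneme, had means of 405 ± 44.2 CPM for SHAM against 494 ± 23.7 CPM for MOG, and the log2 fold change was 0.29 (edgeR adjusted p = 0.102). DESeq2 on all 12 libraries called both genes in MOG vs. SHAM, Bbs12 at 0.33 and Mak at 0.29 (adjusted p = 0.0308 and 0.0301), as did edgeR without the filter on low counts, with the replicate block or with the length-trend correction. DESeq2 on the 6 libraries, limma-voom and limma on FPKM called 0 of the set. With the block and the length-trend correction together, edgeR also called Cc2d2a in MOG vs. SHAM at 0.25 (adjusted p = 0.0364) and Bbs12 in GV16 vs. SHAM at 0.29 (adjusted p = 0.033).

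In the other comparisons the leading genes of this set were not called. Bbs10 had log2 fold changes of -0.29 in GB20 and -0.24 in GV16 against MOG (edgeR adjusted p = 0.487 and 0.921). Tbcc, related to RP2 in its cofactor C domain, had 0.23 in GB20 vs. MOG (edgeR adjusted p = 0.605), and Cc2d2a of the transition zone -0.21 in GV16 vs. MOG (edgeR adjusted p = 0.763). The kinesin-2 accessory subunit Kifap3 had -0.21 and -0.22 in GB20 and GV16 against SHAM (edgeR adjusted p = 0.344 and 0.239). Between the acupoints the leading genes were the near-identical copies Ttc30a1 and Ttc30a2, whose reads the counting could have divided, at 0.18 and -0.56 (edgeR adjusted p = 0.9999 for both).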

How the data were processed

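Retinal RNA was extracted with Trizol and made into 12 libraries, 3 per group, grouped and numbered as the labels give them. Reads were aligned with HISAT2 2.0.5 and assigned to genes with FeatureCounts, and the authors deposited raw, unscaled counts. FPKM values of these libraries, made from count and gene length, were deposited beside them. The build is mm10 per the submitters' processing notes. The sources used here do not give the annotation release, the strandedness or how multi-mapped reads were handled. All per-sample columns were used.

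Names, exons and coordinates came from GENCODE vM21 on GRCm38. Its exon length equalled the deposited length for 34 of 36 members. The members and lists were chosen with earlier results of these data known.

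Counts of all 12 libraries were fitted in R 4.3.3 with edgeR 4.0.16 (expression filter with the 4 groups, TMM, robust quasi-likelihood, 2-sided test, Benjamini-Hochberg over 18299 genes, 8 residual degrees of freedom), and genes were called at an adjusted p-value under 0.05. The fit was tested on simulated data. CPM values are scaled by TMM. Full values are given for Cys1, Unc119, any other called member and, in each comparison, the 3 other members with the smallest p-value. Of the other ciliary genes, called ones or else the leading 2 per comparison are named. Alternatives were DESeq2 1.42.0, limma 3.58.1 on log2(FPKM + 1) and log2(FPKM + 0.1), limma-voom, DESeq2 size factors, no filter on low counts, a length-trend correction, a replicate block (6 residual degrees of freedom) and leaving out each library. Deviations from group means correlated between equal replicate numbers of GB20 and SHAM (0.211 to 0.518 over 11152 genes) and of GV16 and SHAM (0.222 to 0.281). In each of the other comparisons the lowest such correlation was between -0.174 and 0.0101, and for GV16 and GB20 the range was -0.174 to 0.0785. Whether equal numbers mark a shared repeat is not stated. Some of these libraries also shared a trend with gene length, whose part in the correlations was not tested. Same-group libraries differed by more than counting noise, so none was merged. Cys1 had 139 to 351 counts per library and a within-group SD of log2 CPM of 0.198, and intervals cover the spread between libraries.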

Additional observations from a re-analysis of the deposited data

How the results depend on the processing

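With 3 libraries per group, the calls of Cys1 depended on single libraries and on the unit, while its direction against MOG did not change under any alternative run. In MOG vs. SHAM, 0 members were called in the 3 limma fits of FPKM, where Cys1 was at -0.56 with a pseudocount of 1, with or without the filter, and at -0.68 with 0.1. Leaving out a library gave 0 to 1 members and -0.83 to -0.55 for Cys1. In GB20 vs. MOG, DESeq2 on the 6 libraries called 2 members, Cys1 and Unc119 (0.21), and limma with a pseudocount of 1, with or without the filter, called 0 with Cys1 at 0.72. Leaving out a library gave 0 to 1 members and 0.81 to 1.02. In GV16 vs. MOG, limma-voom called 0 with Cys1 at 0.77, and the 3 limma fits of FPKM called 0 with Cys1 at 0.62, 0.76 and 0.62. Leaving out a library gave 0 to 1 members and 0.65 to 0.90. In GV16 vs. SHAM, 1 member, Cep290, was called without the filter, and leaving out a library gave 0 to 1 members. There Cys1 ranged from -0.044 to 0.21, turning below 0 without SHAM replicate 1 (-0.0034) or GV16 replicate 1. The cause of these changes was not tested. Unc119 in GB20 vs. SHAM turned to -0.047 without SHAM replicate 3, with a range up to 0.13, and in GV16 vs. SHAM it turned to 0.024 with the length-trend correction, with or without the replicate block. Leaving out a library there gave -0.11 to 0.064, positive without SHAM replicate 2, GV16 replicate 1 (0.020) or GV16 replicate 3 (0.0018).

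With the replicate block, Cys1 was at -0.70 in MOG vs. SHAM, 0.88 in GB20 vs. MOG and 0.77 in GV16 vs. MOG, and no call of a member changed. Counts over all genes moved by over 1.5 times: in MOG vs. SHAM from 245 to 404 with the block, 539 without the filter, 445 with the block and length trend, 117, 106 and 57 in the limma fits of FPKM. In the same comparison 91 to 427 genes were called on leaving out a library. In GB20 vs. MOG, 44 became 73 with the block, 86 with the block and length trend, 140 without the filter, 126 and 118 in DESeq2 and edgeR on the 6 libraries, 14, 15 and 12 in the limma fits of FPKM, and 13 to 83 on leaving out a library. In GV16 vs. MOG, 30 became 47, 66, 73, 57 and 48 in the same order, 14 in limma-voom, 6, 5 and 9 in the limma fits of FPKM, and 10 to 38 on leaving out a library. All 180 values of FPKM levels stayed within the SD between libraries. For the medians and the means without a library this was fixed in advance by the arithmetic. The remaining alternative, CPM per kb, used the same counts and deposited lengths, so the result is no measure of stability.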
